A study of Mus musculus with 4 samples.

Results

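The genes described here are 10 liver genes of bile acid synthesis and transport, chosen by name: Cyp7a1, Cyp8b1, Cyp27a1, Cyp7b1, Slc27a5, Baat, Abcb11, Slc10a1, Nr1h4 and Nr0b2. They were taken from the authors' deposited comparison tables by gene name. All 10 were found in the input table, out of 12883 genes, and all 10 in the immunoprecipitate table, as 13 of its 7569 transcripts. The groups were Fto knockout immunoprecipitate, wild-type immunoprecipitate, Fto knockout input and wild-type input, all liver total RNA of mice with a C57/Bl6 background. Each group's label states 3 replicates; age, sex, diet and hour of collection are not stated in the labels, nor is whether the knockout is whole-body or liver-specific. The immunoprecipitate was made by miCLIP, in which an antibody against methylated adenosine is crosslinked to RNA fragments that are then cloned and sequenced, and the input is the matching RNA. Single-replicate values were not analysed here, so each value below is the authors' mean or fitted fold change, the depth of the libraries is unknown, and replicates cannot be shown one by one.

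Bile acids are made from cholesterol in hepatocytes, carried into bile and taken back up from portal blood. The classic pathway starts with the hydroxylase Cyp7a1 and the alternative pathway with the mitochondrial hydroxylase Cyp27a1, followed by Cyp7b1, while Cyp8b1 adds the hydroxyl group that makes cholic acid. The bile acid receptor FXR, encoded by Nr1h4, induces Nr0b2, whose protein SHP represses Cyp7a1 and Cyp8b1. Fto is the gene of an enzyme that removes methyl groups from adenosines in RNA, which include N6-methyladenosine within the chain and, where a transcript starts with A, the dimethylated form m6Am beside the cap.

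Because that cap-adjacent form needs a starting A, the annotated start of the genes was read from RefSeq promoters (GRCm38.p6, the assembly also called mm10). Of the 10 genes, 6 had an entry, with 7 starts in all; Cyp7a1, Cyp7b1, Slc27a5 and Baat had none. Each line gives 15 bases before the start, the first transcribed base in capitals and the 14 bases after it, 5′ to 3′ on the transcribed strand.
Cyp8b1: agcaattccagcgctGtagagctgacaagt
Cyp27a1: acctctgcctttaaaGtcgccaggtcgcaa
Abcb11: tttctgttcaatgctTtattaccatgaaaa
Slc10a1, upstream start: cagctagttactctcCacagctggagtttc
Slc10a1, downstream start: ggttctgcaggttgcAtaatcttttatttg
Nr1h4: ctggcccctgtcgctTcttacctcggctcc
Nr0b2: cacagtagagagagaGagagagagggccag
The windows lie at chr9:121916291-121916320 (minus strand) for Cyp8b1, chr1:74713520-74713549 (plus) for Cyp27a1, chr2:69342602-69342631 (minus) for Abcb11, chr12:80968691-80968720 and chr12:80968065-80968094 (both minus) for Slc10a1, chr10:89506644-89506673 (minus) for Nr1h4 and chr4:133553361-133553390 (plus) for Nr0b2. The downstream Slc10a1 start was the 1 of 7 that began with A, while across all 32851 annotated promoters 34.4% did. The starts shown for Nr1h4 (89506658) and Cyp27a1 (74713535) lie inside the annotated genes, whose 5′ ends are at 89533645 and 74713148. The first bases at those outer ends are not shown and not counted. An annotated start is a description of the reference, and which start these livers used was not tested.

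The liver label was checked against cell type markers in the input. All 8 hepatocyte markers were measured, at the authors' means from 294 to 84262, whereas 6 of 7 cholangiocyte markers stood between 2.13 and 68.9. Markers of other cell types reached higher, up to 240 for Kupffer cells, 234 for endothelial cells and 335 for stellate cells. The last of these lies above the lowest hepatocyte marker. Means here are normalized signals of the authors' table and are not per length. This check is therefore rough, and differences of mean between genes are not read as differences of level. In the authors' deposited table, Fto itself stood at −1.49 on the log2 fold change scale (SE 0.27, p = 2.48e-08, adjusted p = 3.52e-04), and the direction of the input was read from it as Fto knockout over wild type.

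Input RNA was compared between the genotypes to see which bile acid genes differed in level. The largest differences lay in the classic pathway and pointed in opposite directions: Cyp8b1 was lower and Cyp7a1 higher in Fto knockout liver, by unadjusted p alone. Neither passed adjustment over all genes, and the other 8 genes stood within 0.35 of 0 on the log2 scale. In the authors' deposited table, 0 of the 10 genes had an adjusted p under 0.05, against 0.0389% of all genes, and 2 had an unadjusted p under 0.05, against 2.21% of all genes. The fitted values and tests are those of DESeq2, the tool named in the submitters' processing notes, and no other tool could be run without replicate counts. The 10 genes had a median log2 fold change of −0.07 and all 12883 genes 0.02, with 4 of the 10 above 0. No standard error in this table exceeded 0.302, which may reflect shrunken estimates; if so, differences of poorly measured genes are understated, and this was not tested.

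Cyp8b1 (ENSMUSG00000050445; chromosome 9, 121914356 to 121916305), the gene of the hydroxylase that directs synthesis towards cholic acid, stood at −0.84 on the log2 scale (SE 0.25, p = 6.55e-04, adjusted p = 0.546) in the authors' deposited table. That is 0.559 of the wild-type level, with a 95% interval of 0.400 to 0.781 from the authors' standard error. It ranked 16th by p and had the 10th lowest fold change of all input genes. Among the 642 genes with a mean of at least 300, a floor chosen after the values were seen, its fold change was the 2nd lowest. At its mean of 736 it was measured more precisely than most genes, its SE lying at percentile 19.5 of all genes.

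Cyp7a1 (ENSMUSG00000028240; chromosome 4, 6265612 to 6275632), the rate-limiting enzyme gene of the classic pathway, stood at 0.61 (SE 0.29, p = 0.0360, adjusted p = 0.9998) in the authors' deposited table. Its level in Fto knockout liver was 1.52 times that in wild-type liver, with an interval of 1.028 to 2.254. Its fold change was the 8th highest of the 642 genes with a mean of at least 300, though its SE lay at percentile 67.3, among the wider ones. The log2 fold changes of Cyp7a1 and Cyp8b1 lay 1.44 apart (SE 0.38 if their errors are taken as independent, which shared libraries do not guarantee); the pair was set side by side for this gap, so it is a description with no test.

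The alternative pathway enzymes stood close to 0. Cyp27a1 (chromosome 1, 74713148 to 74737897) was at 0.08 (95% interval −0.38 to 0.54) and Cyp7b1 (chromosome 3, 18071944 to 18243890), which hydroxylates the oxysterols that Cyp27a1 makes, at −0.17 (−0.69 to 0.35) in the authors' deposited table. Conjugation of bile acids takes a CoA ligase, Slc27a5, and the amino acid transferase Baat. Slc27a5 (chromosome 7, 12988346 to 12998192) stood at −0.28 (−0.79 to 0.22) and Baat (chromosome 4, 49489416 to 49507915) at 0.08 (−0.36 to 0.52) in the authors' deposited table. These intervals reach 0.52 or more away from 0 on at least 1 side, so they do not show that the levels were alike.

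Of the 10 genes, Abcb11 had the smallest standard error. Abcb11 (chromosome 2, 69238282 to 69342616), the bile salt export pump of the canalicular membrane, stood at −0.02 (95% interval −0.45 to 0.40) in the authors' deposited table. Slc10a1 (chromosome 12, 80953185 to 80968705), the sodium-dependent carrier that takes bile acids up from blood, stood at 0.14 (−0.31 to 0.60) there. Nr1h4 (chromosome 10, 89454234 to 89533645), the FXR gene, was at −0.11 (−0.57 to 0.35) in the authors' deposited table. Its target Nr0b2 (chromosome 4, 133553376 to 133556686), which encodes the repressor SHP, was at −0.32 (−0.83 to 0.19), with an unadjusted p of 0.213 in the authors' deposited table. Nr0b2 also had the lowest mean of the 10, at 60.2.

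**Figure D1:**
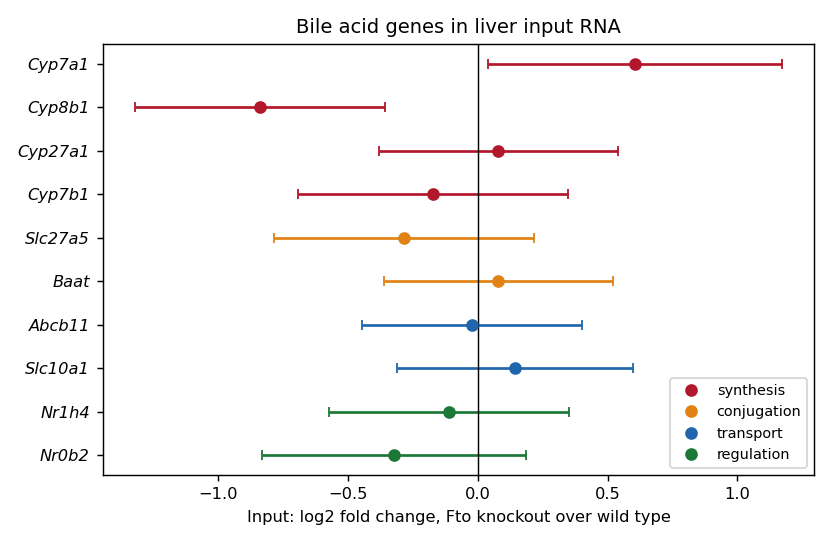
Log2 fold change in input RNA (Fto knockout over wild type, x axis) of the 10 bile acid genes, as the authors fitted it; bars are 95% intervals from the authors' standard errors and colours mark the role. The intervals of Cyp8b1 (−1.32 to −0.36) and Cyp7a1 (0.04 to 1.17) lie on opposite sides of 0, and the other 8 cross it.

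**Figure D2:**
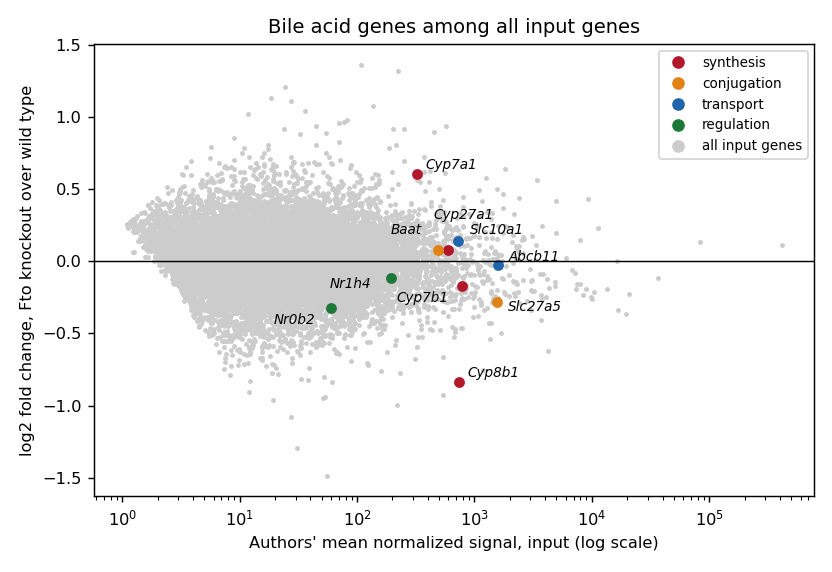
Log2 fold change in input RNA (y axis) against the authors' mean normalized signal (x axis, log scale) for all 12883 genes in grey and the 10 bile acid genes in colour. Cyp8b1 lies below nearly all genes of similar mean and Cyp7a1 near the upper edge.

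Markers of hepatocyte position in the lobule were set beside these values, since pericentral and periportal hepatocytes express different enzymes. All 4 pericentral markers lay above 0 in the input, with a median log2 fold change of 0.47. In the authors' deposited table Cyp1a2 stood at 0.55, Glul at 0.50, Cyp2e1 at 0.43 and Oat at 0.37. Of these 4, 3 had an unadjusted p under 0.05, against 2.21% of all genes. After adjustment 0 were called, against 0.0389% of all genes. The 4 periportal markers had a median of −0.18, with Cyp2f2 at −0.75 (unadjusted p = 0.00181, adjusted p = 0.866) and Sds at 0.01 in the authors' deposited table. Hepatocyte markers had a median of −0.05 over 8 genes, 3 above 0 and 5 below. The highest of them, Tat, stood at 0.57 (unadjusted p = 0.0302, adjusted p = 0.9998) in the authors' deposited table. Cholangiocyte markers had a median of −0.11 over 6 genes. Kupffer cell markers had a median of −0.00079 over 7 genes, endothelial markers 0.15 over 5 and stellate markers −0.0043 over 6. The 2 lymphocyte markers measured had a median of 0.23. All 3 red cell markers measured lay below 0, with a median of −0.48, and in the authors' deposited table Alas2, the heme synthesis gene of red cells, stood at −0.99 (p = 4.92e-04, adjusted p = 0.443), farther from 0 than Cyp8b1. Whether zonation or red cell content has a part in the values of Cyp7a1 and Cyp8b1 was not tested, and in bulk RNA fewer cells of a type and less RNA per cell cannot be told apart.

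The rest of the pathway was described from a list of 61 genes by role, of which 50 were in the input table. None of the 50 passed by the authors' adjusted p in DESeq2, while 2 stood higher and 1 lower at an unadjusted p under 0.05; the shares of all genes at that level were 1.23% higher and 0.979% lower. Their median was 0.00, beside 0.02 for all genes. Cyp39a1, an oxysterol hydroxylase of a side branch of synthesis, had the highest value at 0.98 (SE 0.30, p = 0.00102, adjusted p = 0.577) in the authors' deposited table, which is 1.97 times the wild-type level (95% interval 1.31 to 2.96). Acnat2, an acyltransferase gene of the Baat family, stood at 0.83 (p = 0.00415) in the authors' deposited table, and its close paralog Acnat1 at 0.32 (p = 0.210); reads of the paralogs could be split between them. Ephx1, an epoxide hydrolase gene, stood at −0.48 (p = 0.0396) in the authors' deposited table.

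Among the 7 synthesis genes of that list the median was 0.19, with Scp2, a sterol carrier gene, lowest at −0.41 in the authors' deposited table. For the 7 genes of peroxisomal side chain shortening the median was −0.13 and 5 lay below 0, with Hsd17b4 at −0.32, Slc27a2 at −0.25 and Acot8 at −0.23 in the authors' deposited table and 0 at an unadjusted p under 0.05. The 13 other transporters had a median of 0.00. Abcc4, a basolateral exporter gene, stood at 0.53 (p = 0.0812), Slco1a4, an uptake carrier gene, at 0.39 (p = 0.102) and Abcb4, the phospholipid flippase gene of the canaliculus, at −0.21 (p = 0.325) in the authors' deposited table. Abcc4 had a mean of only 13.1.

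Regulators were spread on both sides of 0. The 15 measured had a median of −0.00033, with the clock repressor Nr1d1 at −0.47 (p = 0.0837) and the coactivator Ppargc1a at 0.41 (p = 0.178) in the authors' deposited table. The 4 measured genes of intestinal FGF15 signalling, which represses bile acid synthesis through a hepatocyte receptor, included the receptor gene Fgfr4 at 0.17 (p = 0.532) and its coreceptor Klb at 0.23 (p = 0.377), with the phosphatase gene Ptpn11 at −0.06 (p = 0.798) in the authors' deposited table.

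**Figure D3:**
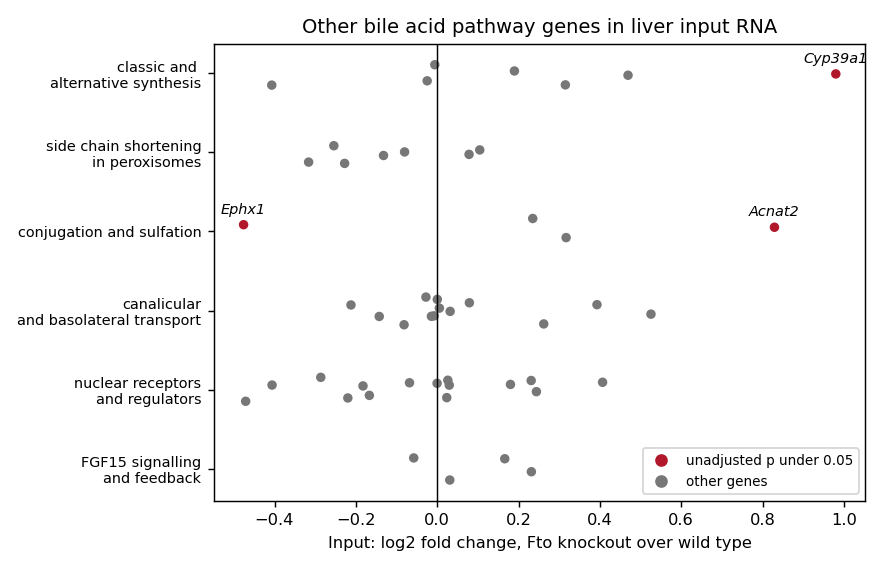
Log2 fold change in input RNA (Fto knockout over wild type, x axis) of the 50 other pathway genes, 1 point per gene, in rows by role; red points have an unadjusted p under 0.05 and vertical spread within a row has no meaning. Cyp39a1 (0.98) and Acnat2 (0.83) lie farthest to the right, Ephx1 (−0.48) farthest to the left.

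The immunoprecipitate was compared between the genotypes to see whether antibody-bound RNA of these genes differed. Its header states no direction; values are read as Fto knockout over wild type. The one ground for this is that fold changes ranked weakly alike with those of the input across 783 genes (Spearman 0.168, a description across genes), and under the opposite reading every sign turns. In the authors' deposited table, 6 of the 13 transcripts have an adjusted p, and 0 of these 6 were under 0.05, against 4.69% of all transcripts with an adjusted value. At an unadjusted p under 0.05 there was 1 of 10 with a p-value, against 10.4% of all, so the share is near the background. No p-value is listed for 3 of the 13, the single transcripts of Cyp7b1, Baat and Nr0b2, against 9.55% of all transcripts. The 13 had a median log2 fold change of −0.15 and all 7569 transcripts −1.59.

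These transcripts were thinly covered. Their means in the immunoprecipitate ran from 4.12 to 55.8, 5 of 13 reached a mean of 10, and 12 of 13 standard errors exceeded 1 on the log2 scale. The authors' p in this table is not the test of the printed fold change over its standard error, so a fold and its p are 2 separate readings. The 95% interval from fold and standard error left out 0 for 6 transcripts, of which that of Nr0b2 has no p listed. The authors' unadjusted p was under 0.05 for 1 of the 6.

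Abcb11, with the highest means of the 10 genes, was the transcript with that p. Its first transcript (ENSMUST00000102709, mean 55.8) stood at 1.75 (SE 0.67, p = 0.0482, adjusted p = 0.222) and its second (ENSMUST00000102710, mean 43.2) at 2.78 (SE 1.22, p = 0.0839) in the authors' deposited table. The pair are isoforms of 1 gene that can share reads, so they are not independent. Slc10a1, the uptake carrier gene, was the least covered, with a mean of 4.12 and a fold change of −0.55 (SE 2.38) in the authors' deposited table.

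Of the synthesis genes, Cyp27a1 stood at −3.28 (SE 1.66, mean 24.8, adjusted p = 0.306) and Cyp8b1 at −2.78 (SE 1.89, mean 13.6, adjusted p = 0.486) in the authors' deposited table. Cyp7b1 was at 3.16 (SE 1.95, mean 9.86) there. Cyp7a1 stood at −0.82 (SE 3.05, mean 6.27), a value that 842 transcripts of the authors' deposited table share to within 0.001, so it carries little about Cyp7a1 itself. Its interval ran from −6.80 to 5.17, and that of Cyp8b1 from −6.50 to 0.93.

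Genes with a pair of transcripts showed how far such values can part. Slc27a5 stood at −0.15 (SE 1.44, mean 40.3) for ENSMUST00000032539 and at −7.59 (SE 3.19, mean 5.56) for ENSMUST00000120903 in the authors' deposited table. Nr1h4 stood at 7.21 (SE 2.73, mean 7.997, adjusted p = 0.281) for ENSMUST00000105296 and at 0.14 (SE 2.34, mean 5.11) for ENSMUST00000058126 in the authors' deposited table. The value of ENSMUST00000058126 is shared by 271 transcripts. Nr0b2 stood at −9.43 (SE 3.34) at a mean of 4.92, and Baat at 3.36 (SE 2.92) at a mean of 8.35, in the authors' deposited table. Fold changes of this size at such means rest on very few reads and are not read as sizes.

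**Figure D4:**
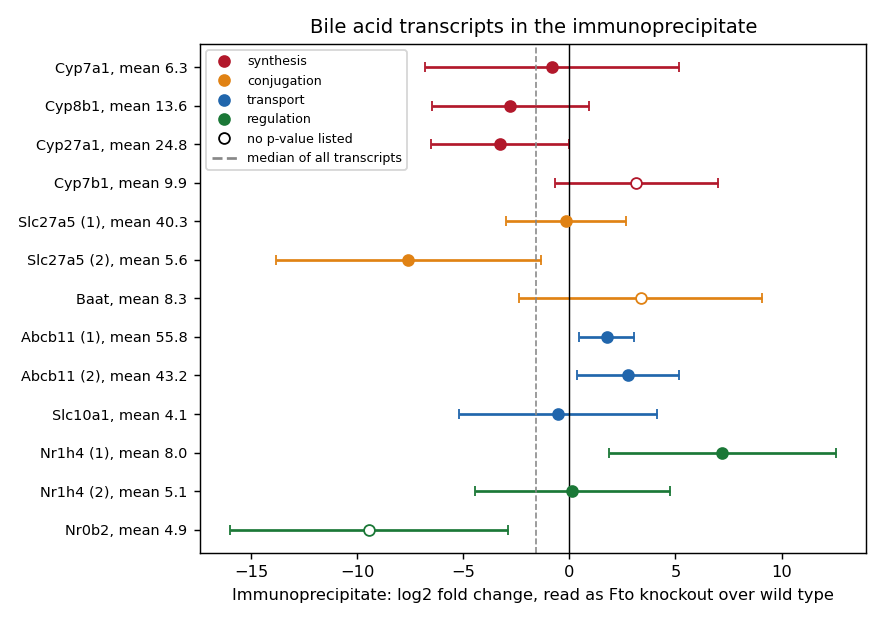
Log2 fold change in the immunoprecipitate (x axis, read as Fto knockout over wild type) of the 13 transcripts of the 10 genes, with the authors' mean beside each name; bars are 95% intervals from the authors' standard errors and open points have no p-value listed. Only the first Abcb11 transcript has an interval narrower than 3 log2 units, and the dashed line marks the median of all transcripts at −1.59.

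Of the other pathway genes, 32 had a transcript in the immunoprecipitate table, 49 transcripts in all, with a median of −0.82. That median is again the value shared by 842 transcripts, which 11 of the 49 hold; without these 11 it was −1.75. Of the 23 with an adjusted value, 0 were called higher and 1 lower, against 3.79% of all such transcripts called lower, so the share is near the background. The call was a transcript of Scp2, which stood in the authors' deposited table at −9.72 (SE 1.96, mean 162, adjusted p = 0.0389), and it was lost when p-values were adjusted over all transcripts that have one. A second Scp2 transcript stood at 0.96 there, with an adjusted p of 0.864. In the authors' deposited table, unadjusted p-values under 0.05 were also reached by Acox2, the peroxisomal oxidase of bile acid side chains, at −6.78 (adjusted p = 0.204), by Sult2a8, a bile acid sulfotransferase gene, at −6.27 (adjusted p = 0.156) and by the xenobiotic receptor gene Nr1i2 at −8.93 (adjusted p = 0.174). Their means ran from 8.15 to 12.9. With Scp2 that made 4 of the 43 transcripts with a p-value, all lower, against 10.4% of all transcripts, so the share is near the background. Over all transcripts, too, most at that level were lower (583, against 129 higher).

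Immunoprecipitate and input were then set against each other per gene, to see whether bound RNA moved apart from the RNA level. For the immunoprecipitate, only the most abundant transcript of a gene was used, against the whole gene in the input. The second transcripts of Abcb11 (2.78) and Slc27a5 (−7.59) were thus left out. The difference of the fold changes was divided by the combined standard error and adjusted over the 783 genes whose means reached 10 in both tables, taking the errors as independent. It rests on the immunoprecipitate's fold change and standard error, which the authors' p there does not follow. Over all 7569 transcripts, their ratio alone called 819 after adjustment, against 110 of 2347 by the authors' adjusted p. Calls of the difference may thus be too many, which was not tested. Of the 4 bile acid genes that could be compared, 1 passed, near the 26.3% of all genes that did (5.87% higher and 20.4% lower in the immunoprecipitate). Abcb11 stood 1.77 higher in the immunoprecipitate (SE 0.70, adjusted p = 0.0452), and the call was lost with no minimum mean (adjusted p = 0.0772), at a mean of at least 50 (0.144) and with the immunoprecipitate direction turned (0.0508), while centring both tables gave 0.00185. Cyp27a1 differed by −3.36 (SE 1.67, adjusted p = 0.140), Cyp8b1 by −1.94 (SE 1.91, adjusted p = 0.567) and Slc27a5 by 0.13 (SE 1.46, adjusted p = 0.978). With the immunoprecipitate direction turned, the difference for Cyp8b1 was 3.62 (adjusted p = 0.161), so the sign of its difference rests on that reading.

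The level of each gene in the immunoprecipitate relative to its input level was described by rank, since the tables were normalized separately. All 10 genes had a transcript in the immunoprecipitate, whereas of the 3603 input genes with a mean at least that of Nr0b2, the lowest of the 10, 47.9% did, and of the 268 with a mean at least the median of the 10, 82.5% did. Relative to input, all 10 lay below the median of the 3944 genes in both tables. The ratio was lower for genes of higher input, with a log2 median of −4.66 among the 1726 genes with an input mean at least that of Nr0b2 and −3.30 among all, so the ranks were also taken among the 1726. There Slc10a1 was lowest, at percentile 4.17, followed by Cyp7b1 at 13.9, Baat at 21.7, Cyp8b1 at 23.9 and Cyp7a1 at 25.1. Slc27a5 lay at percentile 33.8, Abcb11 at 45.3, Nr1h4 at 52.0, Cyp27a1 at 52.3 and Nr0b2 at 77.9. The floor of the 1726 is the lowest input mean of the 10 genes, 60.2, whereas their median input mean was 660. These ranks are therefore not freed of the input level, and how far they follow it was not tested. Each percentile is from the most abundant transcript, and no error can be given for it without replicate values.

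**Figure D5:**
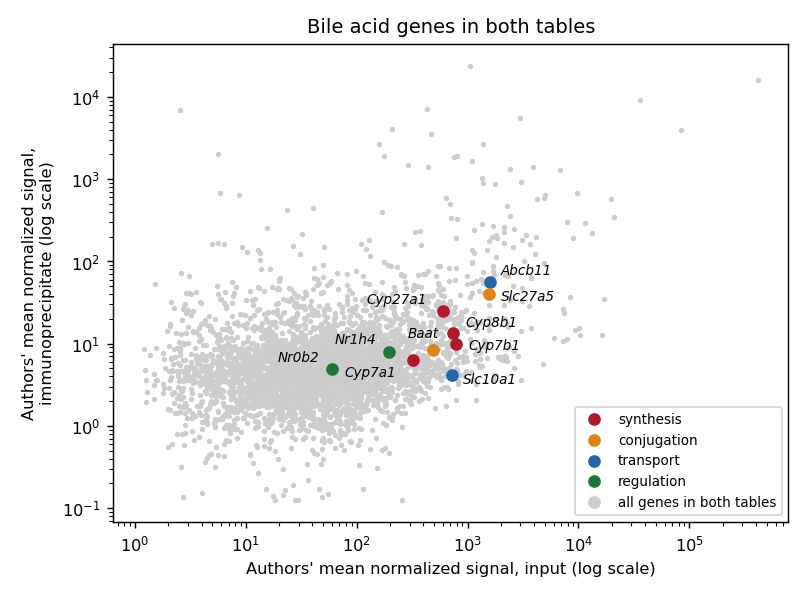
Authors' mean normalized signal in the immunoprecipitate (y axis, most abundant transcript) against that in the input (x axis), both on log scales, for the 3944 genes in both tables (grey) and the 10 bile acid genes (colour). Slc10a1 lies lowest among the coloured points, at 4.12 in the immunoprecipitate and 721 in the input.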

How the data were processed

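miCLIP immunoprecipitate and input of Fto knockout and wild-type mouse liver were compared by the authors, 1 table each. Per the submitters' processing notes, STAR, bedtools 2.25.0, DESeq2 and mm10 were used, with no role or parameter given; neither the counting rule nor the model is stated there. Per the file headers, the authors deposited a mean normalized signal, a log2 fold change with its standard error (log2), a test statistic (unit score), and p-values, raw and adjusted. In the input the statistic equalled fold change over standard error; in the immunoprecipitate p-values matched a chi-square test on the statistic (1 degree of freedom). The authors adjusted over 14167 input genes and 3799 immunoprecipitate transcripts, not all of them analysed here. No model was refitted, and p-values reflect only how these replicates varied, possibly for technical reasons.

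Genes were called at an authors' adjusted p under 0.05. Intervals are 1.96 standard errors either side. Benjamini-Hochberg adjustment and the difference test used scipy 1.17.1 and pandas 2.3.3 in Python 3.11.15 and were tested on simulated data. Symbols came from 12869 of 12883 matched input identifiers. Alternatives changed the adjustment, the minimum mean (10 or 50), the test, centring, the direction and the transcripts used. Levels per length were planned but no transcript lengths were used here. Members and lists were chosen with earlier results of these data known. Named genes were all members, Fto, and of the wider list those with an unadjusted p under 0.05 in either table plus, for roles with none in the input, the 3 lowest p there; Acnat1, the markers and the gene pairs set side by side were named after their values were seen. Of the genes this rule named, 1 is not reported here.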

Additional observations from a re-analysis of the deposited data

How the results depend on the processing

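In the input, 0 of the 10 bile acid genes and 0 of the other 50 pathway genes were called under all adjustment, minimum mean and centring alternatives run, the exclusion of Acnat1 and Acnat2 (added after seeing the data) included; the adjusted p of Cyp8b1 ranged from 0.246 to 0.546. In the immunoprecipitate, a Wald test from fold and standard error called 1 transcript (Nr0b2, adjusted p = 0.0457), against 0 by the authors' p. Nr0b2, at a mean of only 4.92, has no p listed by the authors, so their p could not have called it. The median of transcripts with a mean of at least 10 (−0.82) is, to within 0.001, the value that 842 transcripts share. After centring on that median, the Wald test called 3. These were both Abcb11 transcripts (0.00369 and 0.0409) and 1 of Nr1h4 (0.0409). Over all transcripts it called 213 higher and 606 lower, and 284 and 376 with that centring. For the other pathway genes the call fell to 0 with adjustment over all transcripts that have a p. The Wald test called 8 of their 49 transcripts, against 819 of all 7569. A pair of Nr1i3 transcripts with identical values (5.31) is counted separately among the 8 and holds the only higher calls. The difference between tables called 0 bile acid genes with no minimum mean (432 of all genes) or with a mean of at least 50 (7). It also called 0 with the direction turned (171 higher and 42 lower, against 46 and 160). It called 1 when each table was centred on its median over the genes compared. Centring on the median of all transcripts turned the sign of Cyp7a1 (to 0.77), Slc10a1 (to 1.04) and the more abundant Slc27a5 transcript (to 1.44), and no input sign of the 10 genes turned; signs of the other pathway genes were not followed under centring. No paired analysis was possible because only comparison tables were used, and for that reason no replicate could be left out.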
